A study of Mus musculus with 3 samples.

Results

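Transcripts of 10 plasma protein genes that are made mainly in liver, namely Alb, Ttr, Apoa1, Apoa2, Ahsg, Fga, Fgb, Fgg, Orm1 and Hp, were read in the back skin of IL-10 knockout and wild-type mice. They were chosen by name, and every probe set (a set of short probes that reads 1 transcript region) whose platform annotation gives only that gene was taken. This gave 16 of 45037 probe sets, 4 each for Ttr and Apoa1 and 1 for each of the other genes, and the 10 genes stand among 18193 genes in all. The list was drawn up with results of these arrays known, among them the ratios of Ttr, Hp, Orm1 and Alb, so the values given here are a description and carry no test. KOE mice were male IL-10 knockout mice fed a diet with 8% powdered eggshell membrane (pESM), KO mice were male IL-10 knockout mice fed the AIN-93-based control diet, and WT mice were male C57BL/6J mice fed that control diet. The groups held 6 KOE, 7 KO and 5 WT mice, housed singly and kept on these diets for 28 weeks after the age of 4 weeks. KOE and KO mice carried the same knockout allele of Il10 in all tissues and were bred from B6.129P2-IL-10 tm1Cgn/J and C57BL/6J mice by a cross of heterozygous with homozygous animals that gives no wild-type pups, so WT mice were not their littermates. White fat of the dermis was taken off the skin before RNA extraction. RNA of each group was pooled onto 1 array, 250 ng each, so that no spread between mice was measured and array and group cannot be told apart. Which mice entered each pool is not given.

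Hepatocytes secrete most of the proteins that circulate in plasma. During inflammation, interleukin-6 acting through STAT3, together with interleukin-1 and C/EBP factors, changes this output in the acute phase response. Positive reactants such as fibrinogen, orosomucoid and haptoglobin increase, while negative reactants such as albumin, transthyretin and the apolipoproteins of high-density lipoprotein decrease. Several of these transcripts are also made outside liver, for example Hp and Orm1 in adipocytes, Apoa1 in intestine and Ttr, abundantly, in the choroid plexus. The 10 genes were therefore split by this textbook knowledge into 5 that increase in an acute phase response (Fga, Fgb, Fgg, Orm1 and Hp) and 5 that decrease (Alb, Ttr, Apoa1, Apoa2 and Ahsg).

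The regions upstream of the 3 fibrinogen genes and of Alb are shown because they belong to genes of opposite acute phase direction that were nonetheless highest in the same pool. Windows of 250 bases before the RefSeq transcription start (GRCm38.p6) were available for 7 of the 10 genes, and Orm1, Hp and Ttr had none in the table used. The windows, written 5′ to 3′ on the strand of the gene, are Fga at chr3:83025903-83026152 (plus strand), Fgb at chr3:83049864-83050113 (minus strand), Fgg at chr3:83007474-83007723 (plus strand) and Alb at chr5:90460620-90460869 (plus strand). Capitals mark matches on either strand to CTGGGA, the core of an interleukin-6 response element known from fibrinogen genes, or to GTTAAT, a half-site of the liver factor HNF1, which reads ATTAAC on the opposite strand. No base lay in both motifs.
Fga: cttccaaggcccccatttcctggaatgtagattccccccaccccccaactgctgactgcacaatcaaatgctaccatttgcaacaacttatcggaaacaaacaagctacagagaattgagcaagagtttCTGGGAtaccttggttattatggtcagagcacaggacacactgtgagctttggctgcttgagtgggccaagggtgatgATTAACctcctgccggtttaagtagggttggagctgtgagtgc
Fgb: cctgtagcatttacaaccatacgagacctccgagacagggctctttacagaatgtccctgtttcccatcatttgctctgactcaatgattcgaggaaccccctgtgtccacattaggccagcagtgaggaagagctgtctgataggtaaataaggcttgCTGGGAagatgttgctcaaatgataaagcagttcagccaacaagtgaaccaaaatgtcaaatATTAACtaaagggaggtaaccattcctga
Fgg: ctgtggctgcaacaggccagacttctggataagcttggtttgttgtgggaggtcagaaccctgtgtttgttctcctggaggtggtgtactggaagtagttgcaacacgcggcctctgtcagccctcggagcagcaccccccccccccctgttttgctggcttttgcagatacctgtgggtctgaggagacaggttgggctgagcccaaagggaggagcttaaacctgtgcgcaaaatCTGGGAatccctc
Alb: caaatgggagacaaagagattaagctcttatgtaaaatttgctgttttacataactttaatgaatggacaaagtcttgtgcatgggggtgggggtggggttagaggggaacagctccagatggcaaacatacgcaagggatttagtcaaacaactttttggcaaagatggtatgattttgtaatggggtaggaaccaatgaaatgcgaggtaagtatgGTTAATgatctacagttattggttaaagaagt
CTGGGA was present in each of the fibrinogen windows, beginning 121, 91 and 13 bases before the start of Fga, Fgb and Fgg, and was absent from that of Alb. GTTAAT lay on the gene's strand 32 bases before the start of Alb, and on the opposite strand from 43 bases before the start of Fga and 29 bases before that of Fgb. Of 32851 such windows in the table, 27.0% hold CTGGGA and 6.43% hold GTTAAT. Among the other matched genes, Apoa1 held CTGGGA on the opposite strand, and Apoa2 and Ahsg held neither. These matches are letters in a window and do not show that a factor is bound.

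The arrays gave signal intensities on a linear scale, with a trimmed mean of 500 on each. The study's limits of 1.5-fold and a signal of 40 were used. Its methods do not say which array must reach 40, and here a gene counted as higher or lower when 1 or both of the arrays compared did. Each gene was represented by 1 probe set, the one with the highest signal on average. A signal of 40 was reached by 13640 to 14158 genes per array, and the median signal over probe sets was 108 in KOE, 96.3 in KO and 116 in WT. Scaling the arrays to a common median adds 0.27 to every log2 ratio of KO to WT, and the share of higher genes among all called genes was then 72.4% instead of 42.9%, with 57.4% under quantile and 52.5% under cyclic loess normalization. For KOE vs. KO this share was 67.1% as deposited, 47.1% with a common median, 49.6% under quantile and 48.7% under cyclic loess normalization. For KOE vs. WT it was 54.3% as deposited and 66.6% with a common median. The error of a ratio between arrays or pools was not measured. Between probe sets of the same gene, the log2 ratios of KO to WT had an SD of 0.71 at mean signals of 40 to 200, over 1722 genes. This SD takes in differences between probes and leaves out those between arrays and pools. At mean signals under 40 this SD was 1.77. The targeted gene itself, Il10, had signals of 401 in KOE, 679.9 in KO and 17.0 in WT, and how far its probe set reads transcript of the knockout allele was not examined. The skin markers Krt10, a keratin of the upper epidermis, and Dcn, a dermal proteoglycan, had signals of at least 29571 on every array. None of 6 keratinocyte markers and 1 of 5 dermal fibroblast markers passed the cut-off between KO and WT, where 25.4% of all genes tested did. That 1, Col1a1, a type I collagen gene, had 16038 in KOE, 5880 in KO and 16664 in WT.

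Most of the plasma protein genes, from both acute phase classes, had higher signals in the KO pool than in the WT pool, while Hp was lower and Ahsg and Fgb were too weak to be counted. Of the 10 genes, 7 had higher signals in KO by this cut-off, where 10.9% of 14495 genes were, and 1 was lower, where 14.5% were. Together these are 8 genes, against 25.4% of all genes tested in either direction. Among the 5 genes that increase in an acute phase response, Fga, Fgg and Orm1 were higher, Hp was lower and Fgb was under 40 on every array. Among the 5 that decrease, Alb, Ttr, Apoa1 and Apoa2 were higher and Ahsg was under 40 on every array. The median log2 ratio of KO to WT was 2.69 over the first class and 2.11 over the second, against 0.01 over all genes. With signals under 40 set to 40, these medians were 0.56 and 2.11. Of the 7 higher genes, 5 were under 40 in WT. Genes under 40 in WT and at least 40 in KO are bound to have a ratio above 1, and 79.4% of all 543 such genes were higher past the cut-off. With a signal of at least 40 required in both arrays, Alb and Orm1 remained. Ttr dropped out because its strongest probe set had 4.17 in WT. Its probe sets with 41.9 in WT had 562 and 1081 in KO.

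**Figure D1:**
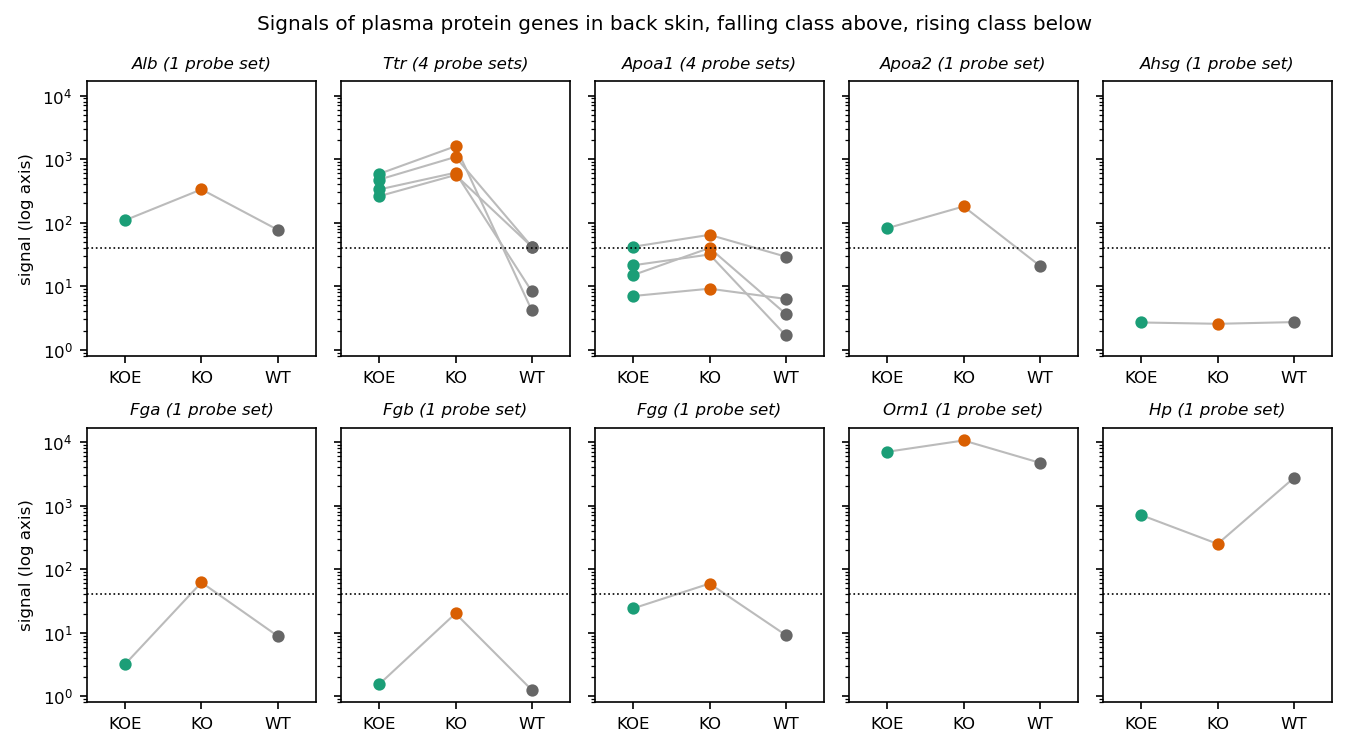
Signals (log axis) of the 16 probe sets of the 10 plasma protein genes in the KOE, KO and WT pools, 1 array each, with 1 line per probe set, the genes that decrease in an acute phase response in the upper row and those that increase in the lower row. The dotted line marks a signal of 40, and the KO pool is the highest of the 3 for Alb, Ttr, Apoa1, Apoa2, Fga, Fgb, Fgg and Orm1, while Hp is lowest in KO with 249 and Ahsg stays under 3 on each array.

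Alb encodes serum albumin, the main carrier and osmotic protein of plasma. It had a signal of 109 in KOE, 334 in KO and 77.1 in WT. The KO pool was the high one, 4.33-fold above WT, and KOE was 3.06-fold below KO. KOE exceeded WT 1.42-fold, which lies under the cut-off. All of these signals were above 40, so that the ratios of Alb do not rest on the lower limit. A ratio of KO to WT at least as high as that of Alb was found for 157 of 14495 genes, and one of KOE to KO at least as low for 135 of 14594.

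Ttr encodes transthyretin, which carries thyroxine and, through retinol-binding protein, vitamin A. Its 4 probe sets, ordered by signal in KO, had 586, 476, 333 and 261 in KOE, 1594, 1081, 611 and 562 in KO, and 4.17, 41.9, 8.30 and 41.9 in WT. Each of the 4 was highest in KO and lowest in WT. The log2 ratio of KO to WT ranged from 3.75 to 8.58 over the probe sets, with a mean of 5.80 ± 2.11 (SD, n = 4 probe sets). The lowest, 3.75, came from the only Ttr probe set whose name does not end in _x_at or _s_at. The probe sets with 41.9 in WT gave ratios of 13.4 and 25.8, and those with WT signals under 40 gave 73.7 and 382. Setting signals under 40 to 40 brought these last ratios to 15.3 and 39.8. With signals under 40 set to 40, a ratio as high was found for none of 14494 other genes at the probe sets with ratios of 39.8 and 25.8, and for 2 of them at each of the other probe sets. Between KOE and KO the probe sets were closer together, at a mean log2 ratio of −1.15 ± 0.23 (SD, n = 4 probe sets). The KOE pool remained above WT at every Ttr probe set, by 6.23-fold or more.

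Markers of other tissues that make transthyretin were weak in these pools. Of 5 choroid plexus markers, 2 reached 40 in KOE, 2 in KO and 3 in WT, and their summed signal was 230 in KOE, 142 in KO and 311 in WT. Clic6, a chloride channel protein, had 135 in KOE, 65.1 in KO and 171 in WT, lower in KO where Ttr was higher. Folr1, a folate receptor, had 52.3 in KOE, 43.2 in KO and 79.2 in WT. Of 3 measured pancreatic islet markers, Ins2, an insulin gene, reached 40 in KOE with 43.9, and none reached it in KO or WT. Their summed signal was 58.8 in KOE, 26.7 in KO and 42.4 in WT.

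Apoa1 and Apoa2 encode the main proteins of high-density lipoprotein. Apoa2 had 81.7 in KOE, 180 in KO and 20.9 in WT, which made KO 8.59-fold higher than WT, or 4.49-fold with the WT signal set to 40. KOE was 2.20-fold lower than KO and 3.90-fold higher than WT. Apoa1 was close to the lower limit. Its strongest probe set had 41.8 in KOE, 64.2 in KO and 29.1 in WT, and the other 3 were under 40 on every array, at 7.00 to 21.3 in KOE, 9.11 to 39.9 in KO and 1.68 to 6.29 in WT. At the strongest one KO was 2.21-fold higher than WT. Apoa1 was no longer counted when its probe sets were averaged, or when those with names ending in _x_at or _s_at were left out. All 4 Apoa1 probe sets were highest in KO and lowest in WT, although 3 of them lie in the range in which probe sets of 1 gene disagree most. Of 6 markers of the intestinal epithelium, the other main source of Apoa1, 2 reached 40 in KOE, 4 in KO and 2 in WT, with summed signals of 376 in KOE, 400.4 in KO and 409 in WT. The best measured of them, Lgals4, a galectin of the gut lining, had 258 in KOE, 196 in KO and 255 in WT, and Alpi, an intestinal alkaline phosphatase, had 43.1 in KOE, 60.1 in KO and 79.2 in WT. The intestinal transcription factor gene Cdx2 had 8.29 in KOE, 51.4 in KO and 5.92 in WT, and Fabp2, a fatty acid-binding protein of enterocytes, had 29.5 in KOE, 45.2 in KO and 24.2 in WT. The part of these cell types in the Ttr and Apoa1 signals was not tested.

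Ahsg encodes fetuin-A, a plasma protein that keeps calcium phosphate from precipitating. Its probe set had 2.68 in KOE, 2.55 in KO and 2.72 in WT. No array reached 40, and no difference was detectable at such signals.

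Fga, Fgb and Fgg encode the chains of fibrinogen, which thrombin turns into the fibrin of clots, and their genes lie side by side on chromosome 3. Each fibrinogen chain is needed for the secreted hexamer. Fga had 3.20 in KOE, 61.7 in KO and 8.83 in WT. Fgb had 1.54 in KOE, 20.1 in KO and 1.25 in WT. Fgg had 24.1 in KOE, 59.2 in KO and 9.14 in WT. All of the fibrinogen genes had their highest signal in KO, and only Fga and Fgg reached 40, in KO alone. The ratios of KO to WT were 6.98 for Fga and 6.47 for Fgg, and 1.54 and 1.48 with signals under 40 set to 40. Fgg was then just under the cut-off. KOE was 19.2-fold lower than KO for Fga and 2.45-fold lower for Fgg, and 1.54-fold and 1.48-fold lower with the same limit. Fgb had a ratio of 16.0 between signals that were both under 40, and it was not counted. Their log2 ratios of 2.80, 4.00 and 2.69 stand beside the SD of 1.77 between probe sets of the same gene in this signal range.

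Orm1 encodes orosomucoid, an acute phase glycoprotein that binds drugs and dampens inflammation. It had 7033 in KOE, 10594 in KO and 4722 in WT, signals well above the lower limit. KO was 2.24-fold higher than WT, KOE was 1.51-fold lower than KO, and KOE was 1.49-fold higher than WT. The second of these lay at the edge of the cut-off and was under it after quantile and cyclic loess normalization. Near-identical copies of this gene (Orm2 and Orm3) exist, and the signal can include their transcripts.

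Hp encodes haptoglobin, which binds free hemoglobin for uptake by macrophages. It had 707 in KOE, 249 in KO and 2724 in WT, and lay opposite to the 7 genes that were higher in KO, both in KO vs. WT and in KOE vs. KO. KO was 10.9-fold lower than WT, KOE was 2.83-fold higher than KO, and KOE was 3.85-fold lower than WT. A ratio of KO to WT at least as low was found for 161 of 14495 genes. Hp kept these directions and remained past the cut-off under every setting tried.

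**Figure D2:**
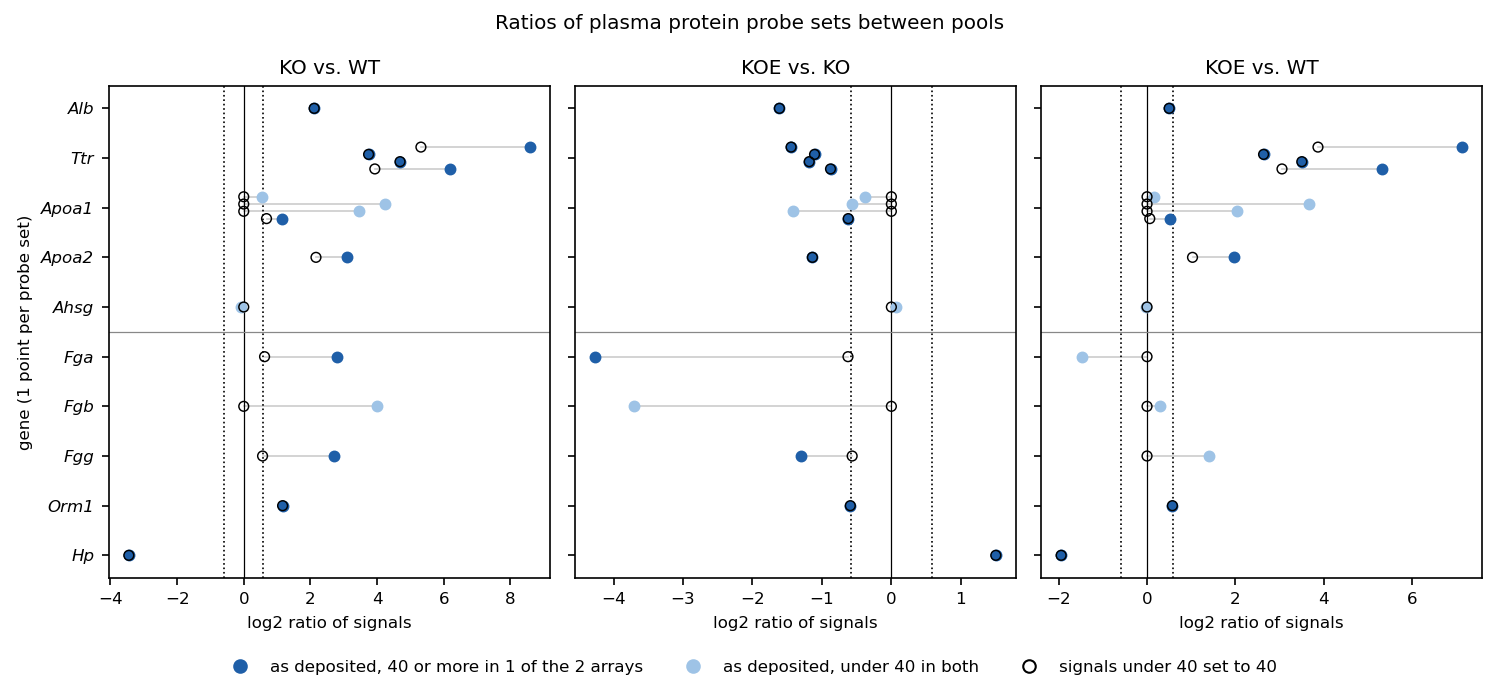
Log2 ratios of signals for each probe set of the 10 plasma protein genes in the 3 comparisons, KO vs. WT leftmost and KOE vs. WT rightmost, with 1 point per probe set and horizontal axes that differ in range. Filled points are the deposited signals, open points have signals under 40 set to 40, dotted lines mark 1.5-fold, and the grey line separates the genes that decrease in an acute phase response (above) from those that increase. Hp lies opposite to the 7 genes counted as higher in KO, at −3.45 in KO vs. WT and above 0 in KOE vs. KO, and the fibrinogen genes move close to 0 with the lower limit applied.

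Hp is made by adipocytes as well as liver, and adipocyte markers lay in the same directions as Hp. Of 14 measured adipocyte markers, 9 had lower and 2 had higher signals in KO by the same cut-off, where 14.5% and 10.9% of all genes tested did. The median log2 ratio of KO to WT over the 14 was −1.49. In KOE compared with KO, 9 were higher and none was lower, with a median of 0.93. Among all genes tested, 10.9% were higher and 5.33% lower in KOE. The summed signal of the 14 was 37825 in KOE, 19588 in KO and 45182 in WT. All of the 14 reached 40 except Lep, the leptin gene, in KO. Adipoq, the adiponectin gene, had 1289 in KOE, 296 in KO and 2194 in WT, and Car3, a carbonic anhydrase abundant in fat, had 13210 in KOE, 2832 in KO and 14062 in WT. Fabp4, a fatty acid carrier of adipocytes, had 9406 in KOE, 4731 in KO and 15268 in WT. Orm1, also made by adipocytes, lay opposite to them. Haptoglobin is also stored by neutrophils, whose markers were more often higher in KO, 5 of 11 with 1 lower, and more often lower in KOE than in KO, 5 of 11 with 1 higher. S100a9, a neutrophil calcium-binding protein, had 282 in KOE, 550.2 in KO and 187 in WT, and its partner S100a8 had 293 in KOE, 815 in KO and 982 in WT. In pooled skin RNA, fewer cells of a type and less RNA per cell cannot be told apart, and the part of either cell type in the Hp signal was not tested.

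The 7 genes with higher signals in KO than in WT had lower signals in KOE than in KO. Of the 10 genes, 7 were lower in KOE past the cut-off, where 5.33% of 14594 genes were, and Hp was higher, where 10.9% were, which makes 8 genes against 16.2% of all genes. These are the 7 genes that were higher in KO than in WT. Both comparisons use the single KO array, so the counts are not independent of each other. By class, Fga, Fgg and Orm1 were lower among the genes that increase in an acute phase response, with a median log2 ratio of −1.29, and Alb, Ttr, Apoa1 and Apoa2 among those that decrease, with a median of −1.14. Over all genes the median was 0.02. Fga and Fgg were under 40 in KOE, and of all 436 genes under 40 in KOE and at least 40 in KO, 76.6% were lower past the cut-off. With signals under 40 set to 40 the medians were −0.56 and −1.14.

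**Figure D3:**
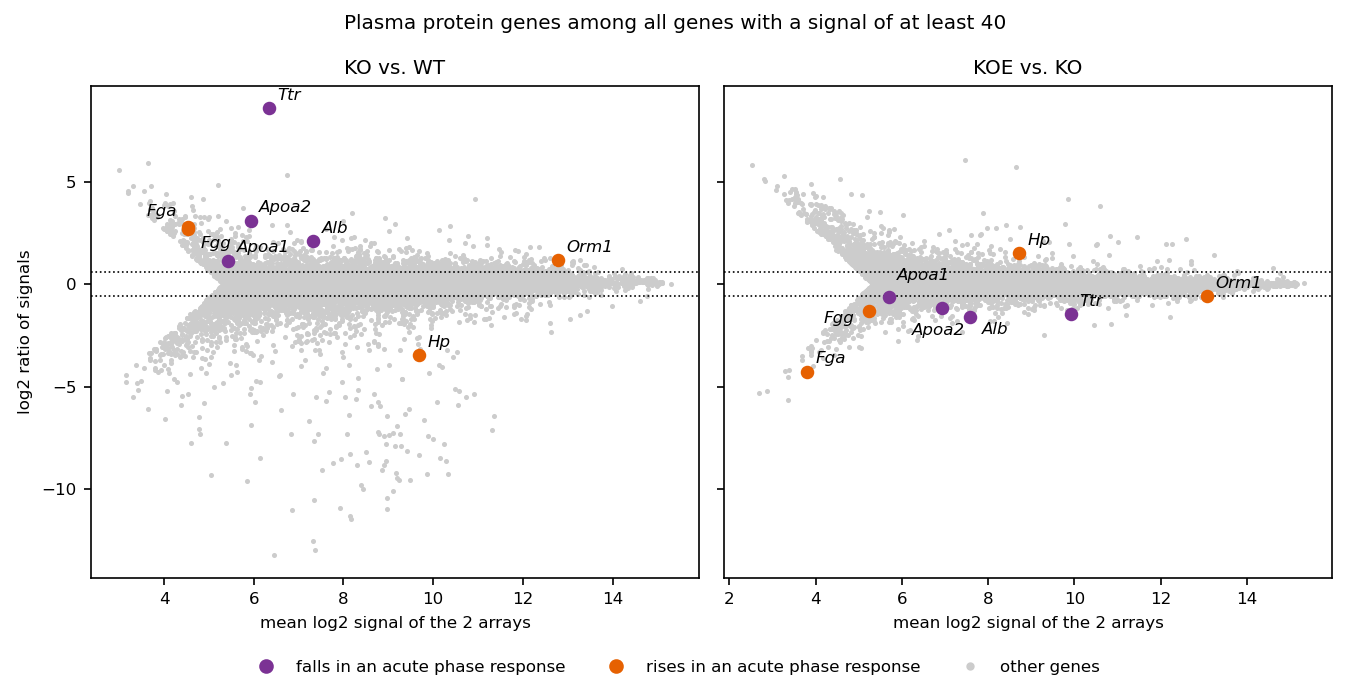
Log2 ratio of signals against the mean log2 signal for KO vs. WT (left) and KOE vs. KO (right), over all genes that reach a signal of 40 in either array compared (grey), with the plasma protein genes that reach it in color. Dotted lines mark 1.5-fold. Ttr stands at 8.58 in KO vs. WT with a WT signal of 4.17, and Ttr, Apoa1, Apoa2, Fga and Fgg all rest on WT signals under 40.

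The KOE and WT arrays, which leave out the KO array, differed less at these genes. Of the 10 genes, 2 were higher in KOE than in WT, Ttr and Apoa2, where 12.4% of 14784 genes were higher, and Hp was lower, where 10.4% were. These 3 genes compare with 22.8% of all genes in either direction. Apoa2 was under 40 in WT and so was the strongest Ttr probe set. Among genes under 40 in WT and at least 40 in KOE, 83.1% were higher past the cut-off. Alb, Apoa1 and Orm1 had ratios of 1.42, 1.44 and 1.49, under the cut-off, and all of them exceeded it with the arrays at a common median.

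Most other plasma proteins that increase in an acute phase response had higher signals in KO, and other liver-made plasma proteins went both ways. The difference between these lists was not tested. Of 15 measured positive reactants other than the 10 genes, 9 had higher and 1 had lower signals in KO, where 10.9% and 14.5% of all genes tested did. Of the 15, 13 reached 40 in KO and 7 in WT, so part of these calls rest on WT signals under 40. The median log2 ratio of KO to WT over the 15 was 0.90, or 0.41 with signals under 40 set to 40. In KOE compared with KO, 8 were lower and none was higher, where 5.33% and 10.9% of all genes tested were. Serpina3n, a protease inhibitor, had 1875 in KOE, 2610 in KO and 1601 in WT. Cp, the copper carrier ceruloplasmin, had 877 in KOE, 1129 in KO and 857 in WT, which is under the cut-off. Lcn2, an antibacterial lipocalin, had 741 in KOE, 1282 in KO and 209 in WT, and Apcs, serum amyloid P, had 3.88 in KOE, 61.5 in KO and 6.69 in WT. Of 37 other liver-made plasma proteins, 9 had higher signals in KO, 5 had lower ones and 23 were not counted as either. Some of these uncounted genes were under 40 in both arrays, too weak to be counted at any ratio. Of the 37, 23 reached 40 in 1 or both of these arrays. Among all genes that reached it there, 14.5% were lower and 10.9% were higher. The median log2 ratio over the 37 was 0.13. Plg, the plasminogen gene, had 33.3 in KOE, 76.0 in KO and 3.56 in WT. Rbp4, which encodes the retinol-binding partner of transthyretin and is also made in fat, had 279 in KOE, 183 in KO and 399 in WT, opposite to Ttr. Apoc1, an apolipoprotein also made by macrophages, had 10959 in KOE, 11142 in KO and 9327 in WT. Serpina1b, an alpha-1-antitrypsin of a family of near-identical genes, had 50.05 in KOE, 55.1 in KO and 1.15 in WT, and its copy is uncertain.

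Hepatocyte genes whose products are not secreted were mostly weak and went both ways. Of 23 measured enzymes, transporters and transcription factors of hepatocytes, 10 reached 40 in KOE, 11 in KO and 8 in WT. By the cut-off, 6 were higher and 4 lower in KO, where 10.9% and 14.5% of all genes tested were. The summed signal of the 23 was 1773 in KOE, 1981 in KO and 5107 in WT. Fbp1, an enzyme of gluconeogenesis, had 74.2 in KOE, 59.7 in KO and 3215 in WT and makes up most of that WT sum. Cps1, the first enzyme of the urea cycle, had 37.8 in KOE, 21.2 in KO and 241 in WT, while Cyp2e1, a cytochrome of alcohol metabolism, had 576 in KOE, 696 in KO and 400.5 in WT. Of the 6 higher genes, Cyp3a11 had 61.2 in KOE, 122 in KO and 23.4 in WT, and Cyp2c29 had 73.9 in KOE, 93.5 in KO and 52.5 in WT. These 2 genes, Hnf4a and Asgr1 are named after their values were seen. Hnf4a, a transcription factor that sets hepatocyte identity, had 38.9 in KOE, 42.4 in KO and 26.4 in WT. Asgr1, the hepatocyte receptor for desialylated glycoproteins, had 18.8 in KOE, 4.78 in KO and 0.88 in WT, under 40 on every array. The part of hepatocyte RNA in the signals of Alb, Ttr and the apolipoproteins was not tested.

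**Figure D4:**
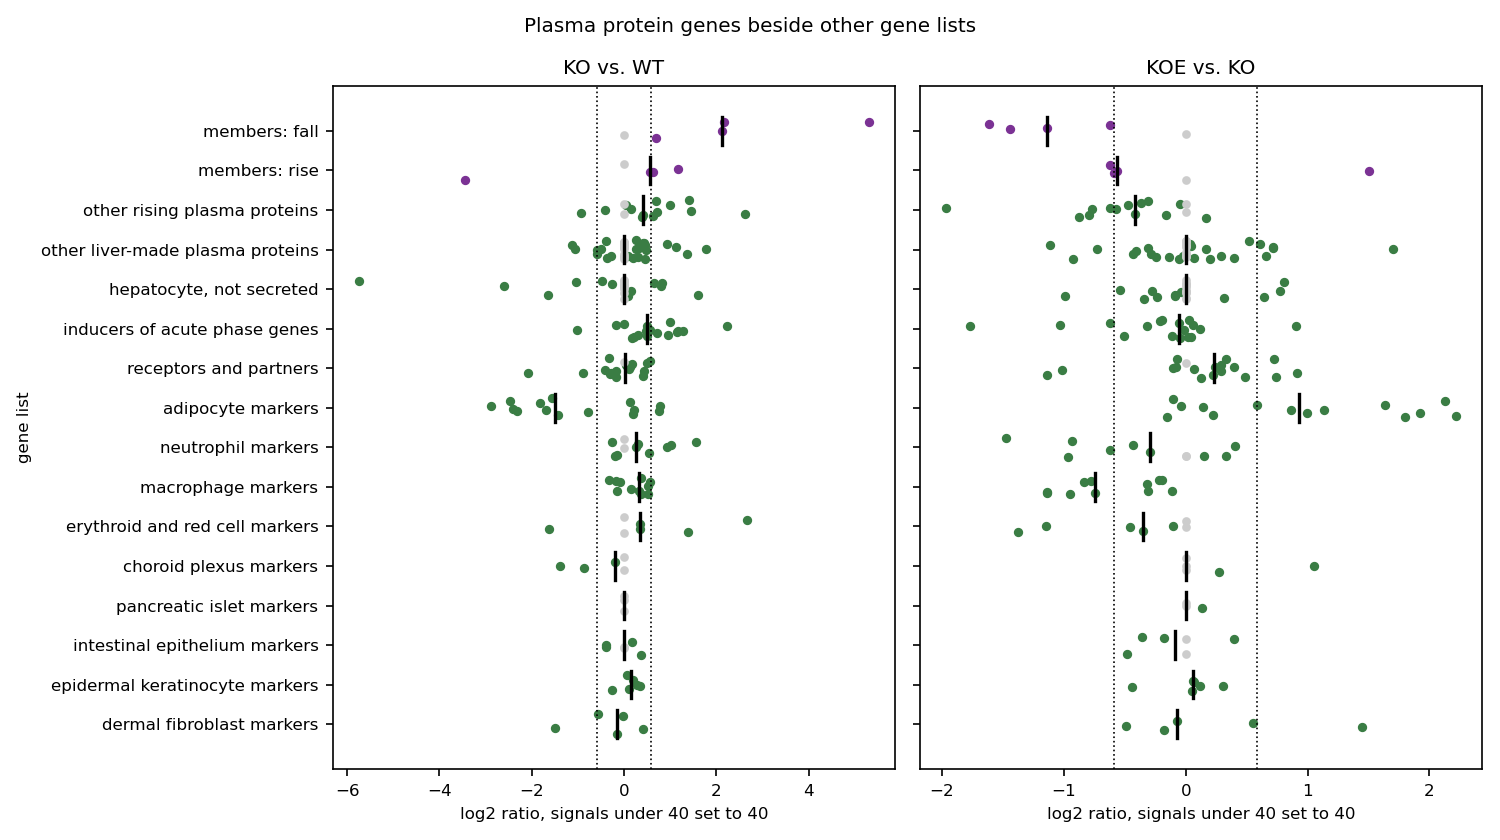
Log2 ratio of each measured gene of the plasma protein classes (purple) and of 14 other lists (green), with KO vs. WT in the left panel and KOE vs. KO in the right one, signals under 40 set to 40, and genes under 40 in both arrays in grey. Black bars are list medians and dotted lines mark 1.5-fold. The class of genes that decrease in an acute phase response has a median of 2.11 in KO vs. WT, and the adipocyte markers have one of −1.49.

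Several inducers of acute phase genes had higher signals in KO. Of 17 measured cytokines, receptors and transcription factors of this response, 8 had higher and 1 had lower signals in KO by the cut-off. Among all genes tested, 10.9% were higher and 14.5% lower. The median log2 ratio of KO to WT over the 17 was 0.56. In KOE compared with KO, 4 were lower and 1 was higher, where 5.33% and 10.9% of all genes tested were. The other 12 were not past the cut-off, and the median log2 ratio of KOE to KO over the 17 was −0.06. Cebpd, a C/EBP factor that acts on acute phase promoters, had 2511 in KOE, 5134 in KO and 1090 in WT. Cebpb, its close relative, had 8196 in KOE, 8054 in KO and 8046 in WT. Tnf, a cytokine that starts the response, had 54.2 in KOE, 77.1 in KO and 12.9 in WT, and Tnfrsf1a, its receptor, had 3578 in KOE, 3306 in KO and 2388 in WT. Socs3, a feedback inhibitor induced by STAT3, is named after its values were seen, with 906 in KOE, 1391 in KO and 577 in WT.

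Blood in the skin was read from red cell genes. Of 7 measured erythroid markers, 3 were higher in KO than in WT and 1 was lower, where 10.9% and 14.5% of all genes tested were. The summed signal of the 7 was 856 in KOE, 1313 in KO and 918 in WT. Hba-a2, an alpha globin gene, had 439 in KOE, 472 in KO and 372 in WT, a difference under the cut-off, and Alas2, the erythroid enzyme of heme synthesis, had 223 in KOE, 495 in KO and 77.7 in WT. Slc4a1, the anion exchanger of the red cell membrane, had 48.9 in KOE, 127 in KO and 394 in WT. The part of blood cells in the plasma protein signals was not tested.

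The genes nearest to Alb, Ttr and Hp were found by the distance between pairs of log2 ratios, KO to WT and KOE to KO, among 12886 or 12887 genes with at least 40 in all 3 arrays. Nearest to Alb were Nr4a3 and Ccn1, both known as early response genes, with Tac4, which encodes a tachykinin, between them, at distances of 0.18, 0.28 and 0.27. Nr4a3 had 151 in KOE, 523 in KO and 119 in WT. Nearest to Hp were Tnc, a matrix protein, Ptgds, a prostaglandin D synthase, and Pi15, a protease inhibitor, at 0.28, 0.39 and 0.49, and Ptgds had 960.4 in KOE, 418 in KO and 3863 in WT. Nearest to Ttr was Il22ra2, which encodes a decoy receptor for IL-22, with 2757 in KOE, 8230 in KO and 462 in WT. Its distance was 4.43 from the strongest Ttr probe set, whose WT signal was under 40, and 1.17 with that signal set to 40. From the Ttr probe sets with 41.9 in WT it was 0.62 and 0.66.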

How the data were processed

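RNA of back skin was measured on Affymetrix mouse whole-genome arrays, a single array of pooled RNA for each group. The authors normalized the arrays with Microarray Analysis Suite and R and deposited linear signal intensities, and the 2% trimmed mean was checked to be 500 on each of the 3 arrays. Raw images and detection calls were not analysed here. Of 45101 probe sets, 64 controls were left out, and 34945 had 1 gene in the platform annotation, updated by gene identifier.

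Ratios of KO to WT, KOE to KO and KOE to WT were computed from these signals. The code that makes the calls was checked on simulated signals. These had noise smaller than the spread between probe sets, and changes only in genes well above the lower limit. The check therefore does not show how reliable the calls are in these arrays. With 1 array per group no test could be run, and the number of arrays limits the precision. The genes and lists were chosen with earlier results of these arrays known. Named genes are the 10 plasma protein genes, Il10, the 2 strongest of each list, its 2 with the largest difference between KO and WT, and the 3 genes nearest to Alb, Ttr and Hp. Cyp3a11, Cyp2c29, Hnf4a, Asgr1 and Socs3 lie outside this rule and were added after their values were seen. Alternatives changed the scaling (common median, quantile, cyclic loess, span 0.7, 3 iterations), the signal limit (none, 100, or 40 in both arrays) and the fold limit (2). Others added an offset of 40, averaged the probe sets of a gene, or left out probe sets with names ending in _x_at or _s_at. Another alternative, chosen after seeing the data, had signals under 40 set to 40. Python 3.11.15, pandas 2.3.3, numpy 2.4.6, R 4.3.3 and limma 3.58.1 were used.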

Additional observations from a re-analysis of the deposited data

How the results depend on the processing

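The count of plasma protein genes higher in KO than in WT was 7 as deposited, 2 where both arrays had to reach a signal of 40 and 4 where 1 had to reach 100. The count lower in KOE than in KO was 7, and 4 under the limit of 100. The count higher in KOE than in WT was 2 as deposited, 5 after scaling to a common median, 0 where both arrays had to reach 40 and 1 under the limit of 100. With 40 required in both arrays, Ttr dropped out through the WT signal of its strongest probe set. At the Ttr probe sets with 41.9 in WT, KOE was 6.23-fold and 11.4-fold higher than WT. Without a signal limit, 2 genes instead of 1 were lower in KOE than in WT, the second being Fga. Of the counts recomputed, the other 59 stayed within 1.5 times their value, and no called ratio of the 10 genes changed its sign under the settings tried. Single log2 ratios stayed within the spread between probe sets of 1 gene in 298 cases and moved by more in 32. The 298 include the settings that change only the signal limit or the fold limit, under which a log2 ratio cannot move. The spread at mean signals of 40 to 200 was applied to every gene, also to weaker and stronger ones. Over all genes, those higher in KO numbered 1582, between 619 and 3381 over the settings, and those lower 2105, between 1125 and 3355. For KOE vs. KO they numbered 1585 (647 to 2944) and 778 (334 to 1697), and for KOE vs. WT 1831 (715 to 3160) and 1543 (828 to 2451). Weak signals limit Fga, Fgb, Fgg, Apoa1 and Ahsg. No paired analysis was possible because each group has 1 array, and no replicate could be left out.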

Other observations

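Receptors and partners of these plasma proteins were read in the same pools. Of 18 such genes measured, 3 had lower signals in KO by the cut-off, a share near the 14.5% of all genes. None had higher ones, where 10.9% of all genes did, and the median log2 ratio of KO to WT was −0.05. In KOE compared with KO, 4 were higher and 2 lower, where 10.9% and 5.33% of all genes were. Stra6, the membrane receptor for retinol-binding protein, had a signal of 79.8 in KOE, 42.4 in KO and 178 in WT. Pltp, which transfers phospholipids between lipoproteins, had 2143 in KOE, 1285 in KO and 2384 in WT, and Abca1, which loads lipid onto apolipoprotein A-I, had 4746 in KOE, 4974 in KO and 6101 in WT. F13a1, the factor XIII subunit that crosslinks fibrin, had 1677 in KOE, 3388 in KO and 2526 in WT.

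Macrophage markers were not past the cut-off between KO and WT in any of 11 cases, where 25.4% of all genes tested were. Between KOE and KO, 6 of the 11 were lower and none was higher in KOE, with a median log2 ratio of −0.75. Among all genes tested, 5.33% were lower and 10.9% higher in KOE. Cd163, the macrophage receptor for haptoglobin bound to hemoglobin, had 677 in KOE, 1493 in KO and 1017 in WT, so that its order over the pools was opposite to that of Hp between KOE and KO. Mrc1, the macrophage mannose receptor, had 1189 in KOE, 2612 in KO and 1826 in WT.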
